A study of Mus musculus with 12 samples.

Results

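The cytosolic ribosomal protein genes encode the proteins of the ribosome, the particle that translates the mRNAs of the cytosol. They were taken by symbol, as Rpl or Rps followed by a number and the family's suffix letters, or Rpsa, Rplp0, Rplp1 and Rplp2, and rows with a pseudogene symbol (-ps) and the Rps6k kinases were left out. The rule gave 86 of the 24532 genes in the deposited table, 33 for the small subunit and 53 for the large subunit, and used no measured value. All 86 were matched to RefSeq, and 82 passed the filter on low counts, which were all 33 of the small and 49 of the large subunit. RNA of whole mouse liver had been sequenced in 12 libraries, 4 per group. Mice labelled Het are the heterozygous controls, mice labelled KO are Atp7b-/-, and mice labelled KO_drug are Atp7b-/- and ate an agonist of LXR, the nuclear receptors that sense oxysterols. Atp7b is the copper-transporting ATPase that is lost in Wilson disease. All groups share the strain C57BL/6x129S6/SvEv and the age of 20 wk. An agonist-fed Het group was not analysed here. The sex, the name, dose and duration of the agonist and the part of Atp7b that the allele lacks were not given in the sources that were used here. Values for single libraries are listed in the order Het 1, 2, 3 and 4, then KO 2, 4, 5 and 6, then KO_drug 1, 2, 3 and 4, the numbers of the labels.

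Ribosomal proteins are made in nearly equal numbers, since each ribosome carries 1 copy of almost every one of them. Their mRNAs are short and abundant, and typically start with a run of pyrimidines at the cap, the terminal oligopyrimidine (TOP) motif, through which mTOR signalling and the cap-binding protein Larp1 control their translation and stability. Free ribosomal proteins, above all Rpl5 and Rpl11 bound to 5S ribosomal RNA, can hold the ubiquitin ligase Mdm2 and so stabilise p53. Some members have a copy elsewhere in the genome that is used in other tissues, or whose transcript is so alike that short reads cannot always be assigned to 1 of the loci.

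Library totals ranged from 16535938 to 28329751 counts, so that counting error was small beside the spread between animals. Atp7b, the targeted gene, stood at 9.9, 13.1, 12.2 and 16.2 CPM (counts relative to library size after TMM scaling) in Het, 1.76, 1.68, 2.71 and 2.2 CPM in KO and 1.31, 3.49, 1.27 and 2.81 CPM in KO_drug. Every KO and KO_drug library was below every Het library, with a log2 change of -2.61 ± 0.32 (SE) in KO against Het and an adjusted p of 5.29e-05 (edgeR quasi-likelihood test, Benjamini-Hochberg over 13379 genes, as for every adjusted p given here unless stated). Groups differed in composition. The 100 most abundant genes took 48.2% of the counts of Het libraries, 35.4% in KO and 42.2% in KO_drug, and the TMM factors lay at 0.77 to 0.98, 1.15 to 1.30 and 0.91 to 1.00. The label gives 1 tissue and no sex, yet Xist, the transcript of the inactive X chromosome, had 81.8 CPM in KO 5, 17.8 CPM in KO 6 and no more than 0.425 CPM elsewhere. Ddx3y, a gene of the Y chromosome, fell short of the other 10 libraries (79.5 to 111 CPM) in both, with 0.379 CPM for KO 5 against 64.4 CPM for KO 6, so that KO 6 held both transcripts and KO 5 nearly Xist alone. Results in KO are therefore also given from KO 2 and KO 4 alone where that ends a call of a named gene. Hepatocyte markers marked all libraries as liver, at a summed 77457 to 109326 CPM of total counts in Het, 50338 to 81953 in KO and 69929 to 83318 in KO_drug. In KO against Het, 7 of 10 fell under TMM, and 3 of 10 with library sizes left at the total counts, where 3.44% of all genes fell. All 12 macrophage and Kupffer cell markers rose in KO, from a summed 392 to 589 CPM in Het to 1505 to 3195 CPM, with 512 to 1269 CPM in KO_drug. Rises were also called for 6 of 7 tested T and NK cell markers. The 9 listed summed to 2.34 to 4.21 CPM in Het, 9.71 to 27.9 in KO and 2.87 to 6.58 in KO_drug, with Klrb1c at 0 in Het and KO_drug. All 4 tested neutrophil markers rose. The 7 listed summed to 0.751 to 5.38, 14.8 to 95.2 and 8.05 to 29.8 CPM, with Ly6g at 0 in Het and KO_drug. Further rises were called for 5 of 9 stellate cell and fibroblast markers (215 to 303, 519 to 913 and 222 to 276 CPM), 4 of 7 cholangiocyte markers (14.9 to 24.9, 89.6 to 194 and 21.8 to 32.3 CPM, with Cldn7 at 0 in Het) and 3 of 8 sinusoidal endothelial markers (294 to 466, 482 to 609 and 332 to 452 CPM). Of 3 tested B and plasma cell markers 1 rose (6 listed, at 1.88 to 5.58, 4.37 to 13.1 and 1.62 to 2.39 CPM). Beside these counts, 23% of all genes rose and 17.7% fell in KO against Het under TMM, the scaling of all marker calls here unless stated. Of 7 erythroid markers 1 fell (159 to 1930, 272 to 1051 and 249 to 759 CPM). The part of these cell types in the results on ribosomal protein mRNAs was not tested. In bulk tissue, fewer cells of a type and less RNA per cell cannot be told apart.

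Ribosomal protein mRNAs were among the abundant mRNAs of these livers. On the deposited FPKM scale, which divides by length and so allows genes to be compared, the median level of the 82 tested members was 208 FPKM, 71 stood over 100 FPKM and 8 under 50 FPKM. Rps29, a zinc-binding protein of the small-subunit head, was the most abundant member, at 812, 447, 489 and 617 FPKM in Het, 540.0, 818, 584 and 628 FPKM in KO and 592, 449.8, 517 and 581 FPKM in KO_drug. Rpl10, which joins the large subunit last and completes the peptidyl transferase centre, was next at 601 ± 155 FPKM in Het, 596 ± 61.4 in KO and 536 ± 61.4 in KO_drug (mean ± SD, n = 4). Rpl41, the smallest ribosomal protein, stood at 411 ± 147, 423 ± 147 and 384 ± 13.8 FPKM. Rps18, of the small-subunit head, stood at 435 ± 174, 384 ± 75.2 and 390.4 ± 41.8 FPKM. Rplp1, of the stalk that recruits elongation factors, stood at 377 ± 83.5, 416 ± 44.1 and 395 ± 40.0 FPKM. These 5 levels overlapped between the groups. In KO and KO_drug the step from Rpl10 down to the next of them exceeded the SDs, while in Het it did not, and the order of Rps29 against Rpl10 and among the other 3 is not resolved. At the low end, Rpl29 stood at 10.4 FPKM over the 12 libraries, Rpl34 at 10.9 FPKM, Rps4l at 10.9 FPKM, Rpl26 at 19.2 FPKM, Rps15a at 19.9 FPKM, Rpl7l1 at 23.8 FPKM, Rpl22 at 34.6 FPKM and Rps20 at 44.4 FPKM. Low rows such as Rpl34 have near-identical copies elsewhere, so their deposited levels may hold only part of their reads. The 4 members set aside by the filter were copies or a like-named row: Rpl3l, the striated-muscle form of Rpl3, had 8 counts over the 12 libraries, Rpl39l had 6, Rpl32l had 59 spread over all 12, and Rpl10l, the testis form of Rpl10, had 0, for which 3 counts would correspond to 0.0114 CPM over the libraries.

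Taken as 1 pool, the 86 genes held like shares of all counts in the 3 groups. The share was 2.40, 1.33, 1.32 and 1.60% in Het, 1.46, 2.18, 1.49 and 1.54% in KO and 1.52, 1.47, 1.67 and 1.73% in KO_drug. Het 1 and KO 4 were the high libraries, and the other 10 lay between 1.32 and 1.73%. Group means were 1.66 ± 0.510%, 1.67 ± 0.344% and 1.60 ± 0.122% (SD, n = 4), so the groups overlapped and their means differed by less than the spread within Het or KO. The 95% Wilson half-width of a library's share was at most 0.00704 percentage points and covers counting error only.

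**Figure D1:**
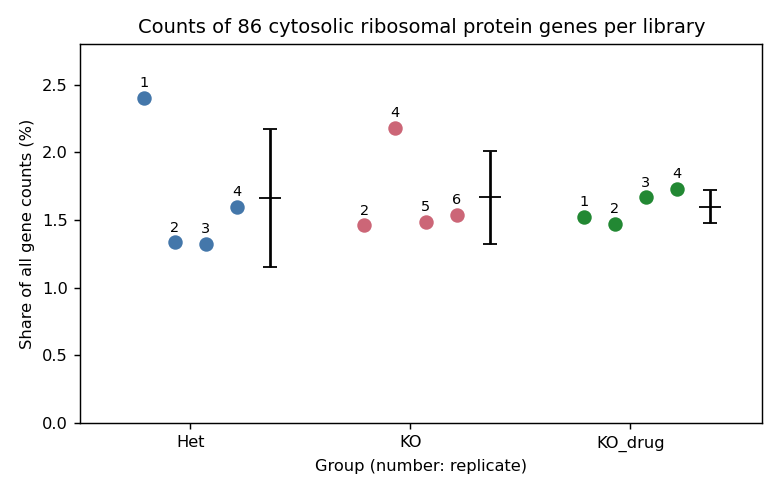
Share of all gene counts (%, y axis) held by the 86 cytosolic ribosomal protein genes in each of 12 liver libraries, by group (x axis), with points for libraries, numbers for replicates and bars for mean and SD. Het 1 (2.40%) and KO 4 (2.18%) stand above the other 10 libraries, and the group means lie between 1.60 and 1.67%.

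The members moved together from library to library. In Het 1, 81 of 82 tested members were above their own Het median, by a median of 0.68 on the log2 scale of total-count CPM, and in KO 4, 79 of 82 were above their KO median, by 0.47. In the opposite direction, 0 of 82 were above the group median in Het 3 and 5 of 82 in Het 2. Other tested genes also stood above their group medians in Het 1 and KO 4. Model lengths are inferred here from the deposited counts and FPKM, not read from an annotation, so the bases are approximate. In Het 1 the median of these other genes was 0.80 for models of up to 700 bases and 0.17 for those over 5000 bases. In KO 4 these values were 0.25 and 0.033. With Rps27 left out, 71.1% of the variance of 81 members over the 12 libraries lay on the first principal component. After removal of each library's median over the members, the median SD of a member fell to 0.105 from 0.283, again on the log2 scale, and 34 members kept an SD under 0.1. A set of 10 kept more than 0.3, among them Rps27 (3.14), Rps4l (0.84), Rpl34 (0.55), Rpl26 (0.42), Rpl30 (0.37), Rps27l (0.33), Rpl22l1 (0.32) and Rps2 (0.31). These are descriptions over libraries that share depth and composition, and no test was made of them. The first component and the SDs were not set against those of all genes.

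**Figure D2:**
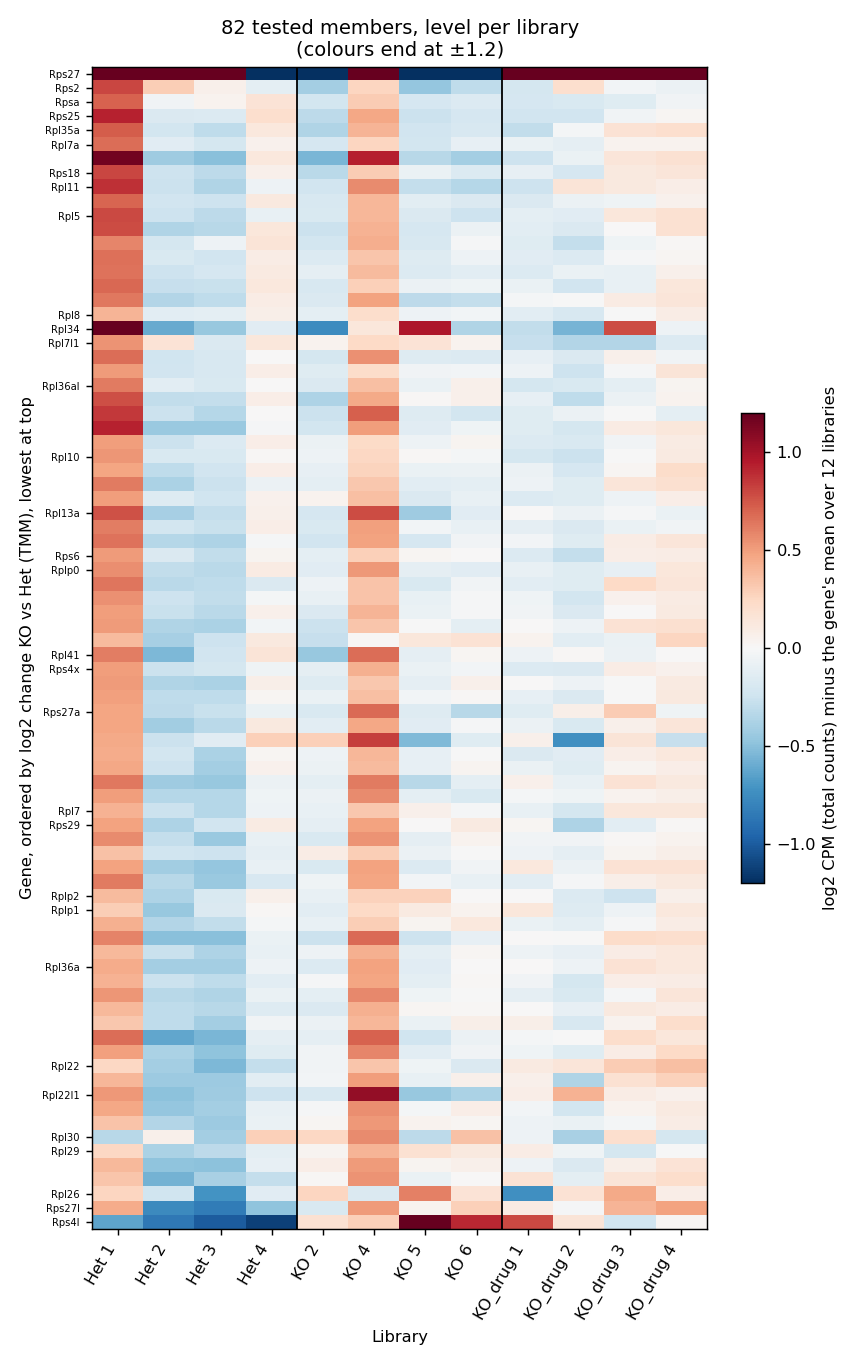
Level of each of the 82 tested members (rows, ordered by log2 change in KO against Het under TMM, with names for rows described in the text) in each of 12 libraries (columns), as log2 total-count CPM minus the gene's mean over the libraries, with colours ending at 1.2 on either side. The columns of Het 1 and KO 4 are high for nearly all rows (81 and 79 of 82 above their group median), and Rps27 and Rps4l do not follow the columns.

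The start sites of the members were read because the members moved together, although other short genes were also high in Het 1. RefSeq's 300-base promoter windows (assembly GRCm38.p6, 250 bases before the start and 50 from it) cover 65 of the 86 members with 77 windows. A run of at least 6 C or T bases that holds the start base was found in 20 of 77 windows (26.0%), against 7.25% of all 32851 windows. CTTTCC was found on either strand in 49.4% of member windows against 26.6% of all, CGGAAGT, a core that ETS factors such as Gabpa bind, in 29.9% against 6.42%, and AAGATGGC, a core of the Yy1 motif, in 10.4% against 2.75%, with 1 pair of these matches overlapping. The windows below run from 30 bases before the annotated start to 20 bases from it and are shown as examples of long, short and absent runs. Capitals mark the C or T run through the start base, or the start base alone where it is A or G.
Rpl7a, chr2:26910777-26910826, + strand: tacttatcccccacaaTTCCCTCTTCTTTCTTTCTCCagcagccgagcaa
Rpl35a, chr16:33056452-33056501, + strand: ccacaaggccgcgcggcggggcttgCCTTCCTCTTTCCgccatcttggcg
Rps18, chr17:33955646-33955695, - strand: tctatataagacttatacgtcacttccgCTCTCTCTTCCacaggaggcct
Rps27, chr3:90213629-90213678, - strand: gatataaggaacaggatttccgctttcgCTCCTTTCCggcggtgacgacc
Rps2, chr17:24720033-24720082, + strand: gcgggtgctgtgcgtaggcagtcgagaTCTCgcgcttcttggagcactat
Rpsa, chr9:120127736-120127785, + strand: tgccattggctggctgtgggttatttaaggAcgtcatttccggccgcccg
Rps25, chr9:44407684-44407733, + strand: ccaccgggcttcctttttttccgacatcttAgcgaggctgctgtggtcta
Rpl22, chr4:152325696-152325745, + strand: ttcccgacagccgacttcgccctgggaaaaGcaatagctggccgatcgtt
Rps27l, chr9:66946056-66946105, + strand: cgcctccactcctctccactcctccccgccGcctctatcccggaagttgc
Rpl7a, Rpl35a, Rps18 and Rps27 carry runs of 21, 13, 11 and 9 pyrimidines, Rps2 a run of 4, and the annotated starts of Rpsa, Rps25, Rpl22 and Rps27l lie on A or G. Annotated starts can be off by some bases, and Rpl35a, Rpl22 and Rps27l have more than 1 annotated start. The 19 tested members with a run of at least 6 had a median log2 change of -0.50 in KO against Het under TMM, with 10 called lower. The 42 with a shorter run or none had -0.47 with 24 called lower, so the medians were nearly equal. Of all tested genes, 17.7% were called lower.

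Further features were shared. The members lie on 19 chromosomes, with 14 on chromosome 7 as the most on any, and 30 of 86 hold at least 1 of 59 snoRNA genes inside their span, the small RNAs that guide ribosomal RNA modification. The median model length of the tested members, as implied by the deposited counts and FPKM, was 885 bases against 3538 for the other tested genes. A protein-coding gene overlaps 13 members, among them Tmtc1 at Rps4l, Ccdc84 at Rps25, Iqcg at Rpl35a and Dipk1a at Rpl5. The library kit keeps strand, but the strand setting of the counting was not given in the sources that were used here, so some reads of such pairs may be counted for the other gene.

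Relative to the median gene, ribosomal protein mRNAs were lower in Atp7b-/- liver than in Het liver. Under TMM scaling, which sets the middle of the fold changes to about 0, 46 of 82 members fell and 1 rose in KO against Het, where 17.7% of all tested genes fell and 23% rose. The median log2 change of the members was -0.47, against 0.018 for all genes, and 80 of 82 had a negative value. Of the small subunit, 18 of 33 fell and 1 rose, and of the large subunit, 28 of 49 fell. No overlap between the 4 KO and the 4 Het libraries was seen for 33 members on the lower side and 1 on the higher side, against 17.1% and 22.2% of all genes.

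Relative to all counts, the same mRNAs were not lower. With library sizes left at the total counts, 0 of 82 members fell and 1 rose by edgeR (1 lower at an unadjusted p under 0.05), and 0 fell by limma on the deposited FPKM (1 lower at an unadjusted p under 0.05, and 3.39% of all genes lower by adjusted p). The members' median log2 change was then 0.028, while that of all genes moved to 0.54 with 3.44% of genes lower and 51.6% higher. The distance between the members and the median gene was nearly the same under both scalings, -0.49 under TMM and -0.51 under total counts. Without overlap under total counts were 0 members on the lower side and 1 on the higher side, against 3.03% and 45% of all genes. Both scalings move all genes of a comparison by about the same amount, so that distance is fixed by construction, and only the sign of the family's own change could turn on them.

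**Figure D3:**
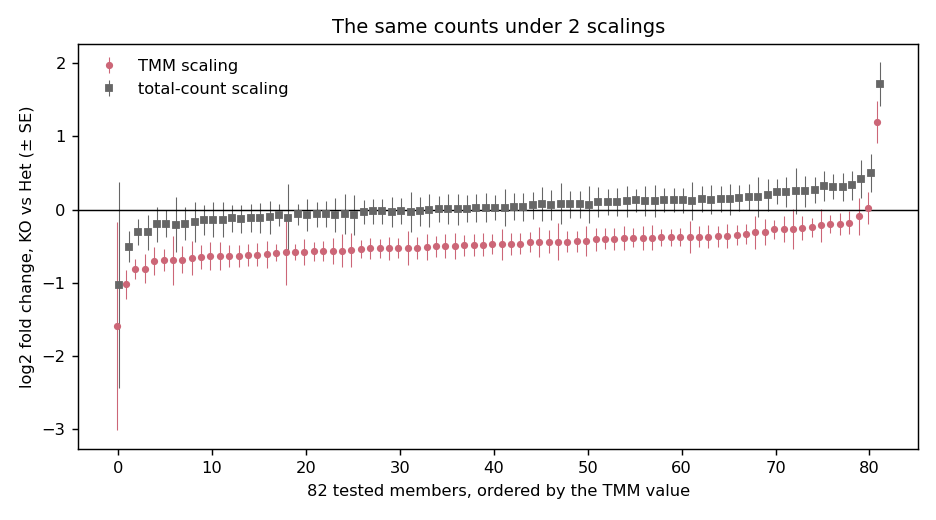
Log2 fold change of KO against Het with its SE (y axis) for the 82 tested members, ordered by the TMM value (x axis), under TMM scaling (circles) and total-count scaling (squares). The median lies at -0.47 under TMM and at 0.028 under total counts, and the rightmost gene, Rps4l, is above 0 under both.

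Gene length moved with this distance. Among the other tested genes, 129 with models of up to 700 bases had a median log2 change of -0.45 under TMM, 240 of 700 to 1000 bases had -0.25, and 3012 of over 5000 bases had -0.022. The members of those short classes stood at -0.47 (27 genes up to 700 bases) and -0.46 (24 genes of 700 to 1000 bases). Members and other genes thus had nearly equal medians up to 700 bases, while from 700 to 1000 bases the members lay lower. Other genes of 1000 to 1500 bases had -0.24 and those of 1500 to 2000 bases had -0.15. Members with longer models are not compared by class here. Het 1 also held more of all short mRNAs: the other genes of up to 700 bases were 0.80 above their Het median there, those of over 5000 bases 0.17. With offsets that remove the trend on length in each library, 18 members fell and 2, Rps4l and Rps27l, rose (18% and 23.5% of all genes did), with a median of -0.22 for the members and a distance of -0.24 to the median gene. The part of length, RNA quality or library preparation in the result was not tested.

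Which libraries are used changes the count. Under TMM, leaving out 1 library at a time gave 26 to 68 lower members, with 26 without KO 2 or without KO 5 and 68 without KO 4 (15%, 15.5% and 14.8% of all genes were lower in these fits), and medians of -0.57 to -0.33. With KO restricted to KO 2 and KO 4, 21 members fell and 0 rose, against 15.6% and 19.5% of all genes. DESeq2 called 54 lower (18.7% of all genes), and edgeR called 59 without Het 1 and KO 4, where 13.9% of all genes fell.

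The largest fall among members with a call was that of Rps2, a small-subunit protein near the mRNA entry channel (chromosome 17, 24718121 to 24721927 in GRCm38.p6). Its levels were 672, 606, 502 and 401 CPM in Het, 237, 349, 223 and 266 CPM in KO and 326, 459, 408 and 361 CPM in KO_drug. All KO libraries were below all Het libraries, KO_drug overlapped both groups, and the means were 545 ± 119, 269 ± 56.4 and 389 ± 57.7 CPM (SD, n = 4). In KO it was 2.03-fold lower than in Het, a log2 change of -1.02 ± 0.19 (adjusted p = 0.00122). With library sizes set to the summed counts of the members, a scaling chosen after seeing the data, Rps2 still differed by -0.55 ± 0.18 (adjusted p = 0.028). It was the only lower call among the 82, against 2.83% of all genes lower and 41.9% higher. Since Rps2 was picked as the largest called fall in the same counts, this is no separate test that it fell more than the family. With total counts the value was -0.50 (adjusted p = 0.0582).

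Rpsa, the small-subunit protein that also serves as a laminin receptor (chromosome 9, 120127766 to 120132369), stood at 671, 511, 526 and 521 CPM in Het, 289, 385, 284 and 314 CPM in KO and 349.7, 375, 403 and 392 CPM in KO_drug. Het 1 was the highest library, and all 8 Atp7b-/- libraries lay below the Het range. Rpsa fell in KO against Het by 1.75-fold (log2 -0.81 ± 0.14, adjusted p = 0.000726) and was lower in KO_drug than in Het by -0.55 ± 0.14 (adjusted p = 0.0134). With total counts neither call held (adjusted p = 0.166 and 0.14). Rps25, needed by some viral internal ribosome entry sites, stood at 373, 223, 219 and 256 CPM in Het, 129.6, 206, 131 and 146 CPM in KO and 164, 174, 207 and 197 CPM in KO_drug. Its KO values were all below Het, with KO 4 nearest, and it fell by 0.81 ± 0.20 (adjusted p = 0.00567). Rpl35a, 1 of the genes mutated in Diamond-Blackfan anaemia, stood at 252, 167, 153 and 186 CPM in Het, 96.4, 153, 103 and 114 CPM in KO and 121, 154, 185 and 171 CPM in KO_drug. KO 4 reached the lowest Het value, so the groups overlapped, and the log2 change was -0.70 ± 0.19 (adjusted p = 0.0117). From KO 2 and KO 4 alone the calls of Rps2, Rpsa and Rps25 held and that of Rpl35a did not (adjusted p = 0.0654).

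**Figure D4:**
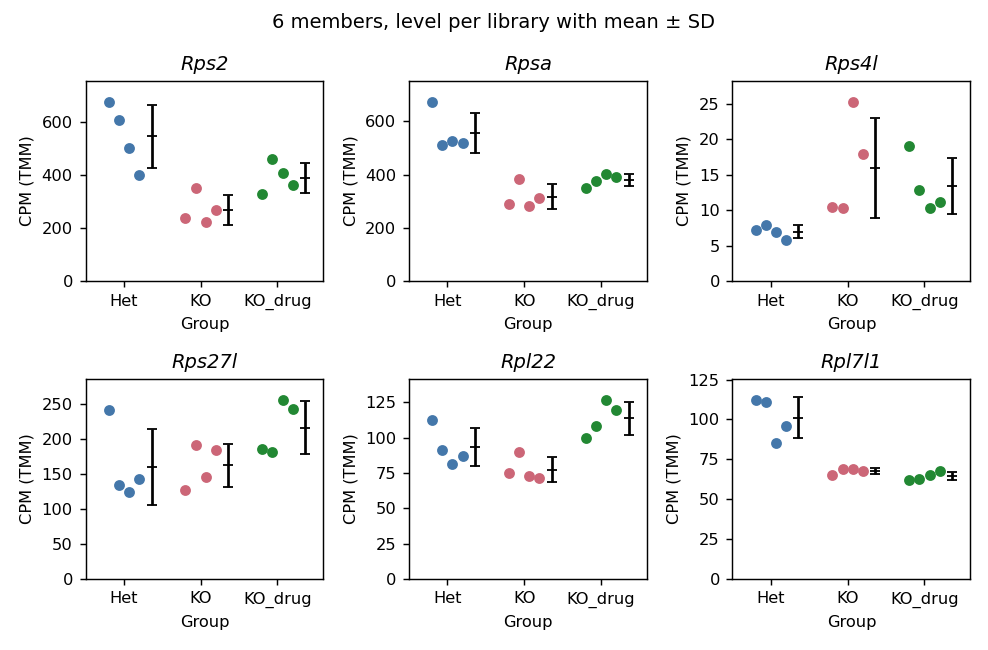
CPM on TMM-scaled library sizes (y axes, from 0) of Rps2, Rpsa, Rps4l, Rps27l, Rpl22 and Rpl7l1 in each library by group (x axes), with bars for mean and SD over 4 libraries. Rps2, Rpsa and Rpl7l1 are lower in all KO than in all Het libraries, Rps4l is higher in all KO and KO_drug than in all Het libraries, and Rpl22 is higher in all KO_drug than in all KO libraries.

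Members with known roles beyond the ribosome had negative values too. Rpl5 and Rpl11 form the 5S particle that binds Mdm2. Rpl5 stood at 468, 292, 271 and 286 CPM in Het, 194, 271, 191 and 194 CPM in KO and 245, 254, 323 and 302 CPM in KO_drug, with Het 1 and KO 4 high in their groups, KO 4 just below the lowest Het library, and a log2 change of -0.63 ± 0.19 (adjusted p = 0.0188, and 0.0501 without KO 5 and 0.0504 without KO 6). Rpl11 stood at 325, 189.6, 171 and 191 CPM in Het, 123, 199, 115 and 119 CPM in KO and 146, 203, 207 and 184 CPM in KO_drug, with KO 4 above the 3 lower Het values and a log2 change of -0.66 ± 0.23 (adjusted p = 0.036). The Rpl11 call was lost without Het 1, KO 2, KO 5 or KO 6, with adjusted p of 0.118, 0.087, 0.092 and 0.092. From KO 2 and KO 4 alone neither call held (adjusted p = 0.103 for Rpl5 and 0.193 for Rpl11).

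The stalk of the large subunit, which docks the GTPase elongation factors, has Rplp0 as its base and Rplp1 and Rplp2 as its arms. Rplp0 stood at 698, 495, 473 and 572 CPM in Het, 352, 516, 349 and 369 CPM in KO and 437, 444, 480.1 and 513 CPM in KO_drug, and KO 4 lay within the Het range. The 3 stalk genes fell in KO against Het, with log2 changes of -0.50 (Rplp0, adjusted p = 0.0303), -0.38 (Rplp1, adjusted p = 0.0228) and -0.38 (Rplp2, adjusted p = 0.0179). Rplp1 stood at 284, 217, 258 and 264 CPM in Het, 174, 209, 199 and 205 CPM in KO and 250.2, 216, 242 and 249.6 CPM in KO_drug. Its highest KO library stayed below the lowest Het library. The Rplp0 call was lost in 5 of 12 fits that left out 1 library (Het 1, Het 4, KO 2, KO 5 or KO 6, adjusted p of 0.0563 to 0.0808) and from KO 2 and KO 4 alone (0.144). Without KO 2 those of Rplp1 (0.0694) and Rplp2 (0.0547) were lost too, and with length offsets 0 of 3 were called by edgeR (1 lower at an unadjusted p under 0.05).

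Rps6, the substrate of the S6 kinases downstream of mTOR, stood at 455, 362, 324 and 367 CPM in Het, 240.4, 295, 257 and 274 CPM in KO and 279.5, 270.3, 364 and 333 CPM in KO_drug. All KO libraries were below all Het libraries, and it fell by 0.50 ± 0.14 (adjusted p = 0.0146). Rpl13a, which in myeloid cells can leave the ribosome to silence inflammatory mRNAs, stood at 288 ± 78.1 CPM in Het, 200.1 ± 74.3 in KO and 235 ± 13.9 in KO_drug, a log2 change of -0.53 ± 0.23 that did not pass (adjusted p = 0.0871). Rps27a, made as a fusion with ubiquitin, stood at 152 ± 23.4, 112 ± 34.3 and 144 ± 27.2 CPM, with -0.44 ± 0.20 in KO against Het (adjusted p = 0.0936). Both had KO 4 as the highest KO library, at 168, 308, 140.3 and 184 CPM for Rpl13a and 96.6, 163, 96 and 91.5 CPM for Rps27a. Each passed in 1 of 12 fits that left out 1 library, that without KO 4. The values there were -0.81 (adjusted p = 0.00676) for Rpl13a and -0.68 (adjusted p = 0.00793) for Rps27a.

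Of the 18 tested members mutated in Diamond-Blackfan anaemia, a failure of red cell production, 8 fell and 0 rose in KO against Het by edgeR (13 lower and 0 higher at an unadjusted p under 0.05), with a median of -0.42. All 18 had a negative value. Beside these 8 of 18 stand 46 of the 82 members and 17.7% of all genes. With length offsets 2 of the 18 fell, and under total counts 0 were called by edgeR (0 at an unadjusted p under 0.05). Of the 5 members highest by FPKM, Rps18 (-0.68 ± 0.18, adjusted p = 0.0098), Rpl10 (-0.53 ± 0.14, adjusted p = 0.00916) and Rplp1 fell, while Rps29 (-0.40, adjusted p = 0.0516) and Rpl41 (-0.47, adjusted p = 0.0885) did not pass. Of 12 fits that left out 1 library, 3 called Rps29 lower, those without KO 4 (0.0271), Het 2 (0.0374) or KO_drug 2 (0.048). For Rpl41 these were 2, without KO 4 (0.0147) or Het 2 (0.0459).

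The copies of other members were read against their partners within each library, since such a ratio does not depend on the scaling. Of 8 pairs, 5 had at least 10 counts of both genes in 4 or more libraries, which gave 15 tests by exact two-sided permutation of 4 against 4 libraries. The smallest p such a test can give is 0.0286, and the smallest adjusted p over the 15 was 0.0714, so no ratio passed after adjustment. Rps4l, Rpl7l1 and Rpl36al moved against their partners without overlap of the groups in at least 1 comparison.

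Rps4l is a copy of Rps4x without introns, classed as a transcribed pseudogene, inside the span of Tmtc1 (chromosome 6, 148354656 to 148355596). Over 783 aligned bases it is 79.9% identical to the Rps4x coding sequence with no identical stretch longer than 35 bases. Its levels were 7.22, 7.9, 6.98 and 5.82 CPM in Het, 10.4, 10.4, 25.2 and 17.9 CPM in KO and 19.1, 12.9, 10.3 and 11.2 CPM in KO_drug. Every KO and every KO_drug library was above every Het library, with KO 5, KO_drug 1 and KO 6 the highest. Rps4l rose in KO against Het by 2.29-fold (log2 1.19 ± 0.29, adjusted p = 0.00505), the only member that rose, and by 1.71 under total counts (adjusted p = 0.000364). KO 5 and KO 6, which hold Xist, were its high KO libraries, and with KO 2 and KO 4 alone the value was 0.52 (adjusted p = 0.107). The log2 ratio of Rps4l to Rps4x was -6.11, -5.58, -5.77 and -6.05 in Het, -4.69, -5.12, -3.40 and -4.04 in KO and -4.02, -4.66, -5.30 and -5.01 in KO_drug. KO exceeded Het by 1.56 and KO_drug exceeded Het by 1.13 (each exact permutation p = 0.0286, adjusted 0.0714), without overlap. Tmtc1, the host gene, stood at 1.29 ± 0.46 CPM in Het and 2.11 ± 0.255 in KO (log2 0.70 ± 0.36, adjusted p = 0.14), but passed under total counts (1.19, adjusted p = 0.0255). Its part in the Rps4l counts was not tested.

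Rpl7l1, a nucleolar relative of Rpl7 that takes part in large-subunit assembly (chromosome 17, 46773907 to 46782656), stood at 112, 111, 85.2 and 95.7 CPM in Het, 65, 69.1, 68.6 and 67.8 CPM in KO and 62.3, 62.6, 65.4 and 67.6 CPM in KO_drug. All 8 Atp7b-/- libraries were below the Het range and close to each other. It fell in KO against Het, with a log2 change of -0.58 ± 0.11 (adjusted p = 0.000953) and was lower in KO_drug than in Het by -0.65 ± 0.11 (adjusted p = 0.00079), the second also under total counts (-0.47, adjusted p = 0.027). Against Rpl7, its log2 ratio averaged -2.20 ± 0.14 in Het, -2.37 ± 0.095 in KO and -2.71 ± 0.16 in KO_drug (SD, n = 4). KO_drug was below KO by 0.33 and below Het by 0.51 without overlap (each exact permutation p = 0.0286, adjusted 0.0714).

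Rpl36al shares 87.7% of its coding bases with Rpl36a, and both encode the same kind of large-subunit protein. It fell in KO against Het (-0.56 ± 0.14, adjusted p = 0.00674), and Rpl36a had -0.37 (adjusted p = 0.077, and 0.0256 without KO 4). Their log2 ratio was 0.63, 0.74, 0.68 and 0.52 in Het, 0.45, 0.34, 0.51 and 0.51 in KO and 0.24, 0.33, 0.17 and 0.37 in KO_drug. It was highest in Het, with differences of -0.19 for KO and -0.37 for KO_drug (each exact permutation p = 0.0286, adjusted 0.0714). Rpl22l1 and Rpl22 encode a like pair in which Rpl22 protein is known to repress Rpl22l1. Rpl22l1 stood at 49.6, 31.6, 32.1 and 32.9 CPM in Het, 24.7, 54.6, 20.1 and 22.7 CPM in KO and 35.9, 47.7, 40.0 and 35.3 CPM in KO_drug, with Het 1 and KO 4 high, and its ratio to Rpl22 differed between groups by 0.15 or less on the log2 scale (exact permutation p of 0.371 to 0.857). That ratio was -1.18, -1.53, -1.34 and -1.41 in Het, -1.60, -0.72, -1.85 and -1.66 in KO and -1.48, -1.18, -1.66 and -1.76 in KO_drug. The KO libraries other than KO 4 lay below the Het range, and without KO 4 the difference of KO from Het was -0.34. Rpl22l1 itself had a log2 change of -0.26 in KO against Het, with -0.69 (adjusted p = 0.0103) without KO 4 and -0.083 without Het 1.

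The deposited counts of Rps27 and of its retrogene fell into 2 patterns. Rps27rt is a single-exon retrogene of Rps27, on chromosome 9, 114982366 to 114982739 (minus strand), with Rps27 on chromosome 3, 90212671 to 90213651 (minus strand, 4 exons). Their coding sequences of 252 bases are identical, and their transcripts of 345 and 374 bases share 341 identical bases. Rps27l, the third locus, is a 4-exon gene on chromosome 9 known as a target of p53, and differs from Rps27 at 60 of 252 coding bases. The coding sequences, from GENCODE transcripts of GRCm38, are shown with these 60 bases in capitals. Within the coding sequence, they are what sets Rps27l reads apart from those of the other pair. The untranslated parts of Rps27l were not compared.
Rps27: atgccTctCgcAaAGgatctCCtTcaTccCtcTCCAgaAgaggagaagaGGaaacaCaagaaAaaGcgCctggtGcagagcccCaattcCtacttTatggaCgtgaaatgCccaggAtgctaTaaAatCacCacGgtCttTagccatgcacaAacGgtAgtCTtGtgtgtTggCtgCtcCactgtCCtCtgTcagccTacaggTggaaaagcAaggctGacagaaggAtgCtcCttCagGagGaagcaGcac
Rps27l: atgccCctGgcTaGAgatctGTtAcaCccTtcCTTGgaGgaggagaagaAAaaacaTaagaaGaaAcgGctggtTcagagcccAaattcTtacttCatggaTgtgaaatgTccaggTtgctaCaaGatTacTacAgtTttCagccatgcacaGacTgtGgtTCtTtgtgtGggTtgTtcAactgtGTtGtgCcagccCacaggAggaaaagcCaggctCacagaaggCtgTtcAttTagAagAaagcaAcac
No identical stretch between the 2 coding sequences is longer than 11 bases. Counts of Rps27 were 6338, 3519, 3117 and 40 in Het, 48, 4711, 49 and 65 in KO and 2519, 2965, 3438 and 3518 in KO_drug. Counts of Rps27rt were 18, 104, 161 and 4343 in Het, 3549, 204, 4401 and 2750 in KO and 88, 50, 15 and 104 in KO_drug. Rps27 thus held 95.1 to 99.7% of the pair in 8 libraries and 0.913 to 2.31% in Het 4, KO 2, KO 5 and KO 6, with nothing between. The sum of both moved far less, from 127 to 322 CPM of total counts, and its highest libraries were Het 1 and KO 4, as for the family.

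**Figure D5:**
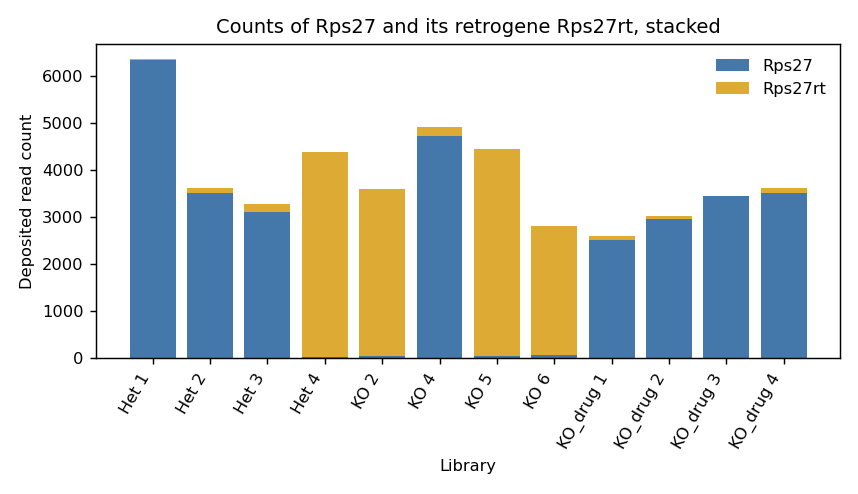
Deposited read counts (y axis, from 0) of Rps27 and of its retrogene Rps27rt, stacked, in each of 12 libraries (x axis). Rps27 holds at least 95.1% of the pair in 8 libraries and at most 2.31% in Het 4, KO 2, KO 5 and KO 6.

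As a single row, Rps27 had a log2 change of -1.59 ± 1.42 in KO against Het (adjusted p = 0.395), an SE larger than that of any other member. Summed with Rps27rt, the change was -0.65 ± 0.26 (adjusted p = 0.0609), and it was 0.20 (adjusted p = 0.62) in KO_drug against KO and -0.44 (adjusted p = 0.252) in KO_drug against Het. Which of the loci gave the reads cannot be told apart for this pair. Rpl34 and the row Rpl34-ps1 are a milder case, with 2 of 351 bases different and Rpl34 holding 21.8 to 64.7% of the pair, highest in KO 5, Het 1 and KO_drug 3.

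Rps27l itself stood at 242, 134, 124 and 143 CPM in Het, 128, 192, 146 and 185 CPM in KO and 186, 181, 256 and 243 CPM in KO_drug. Het 1 was far above the other Het libraries, and the log2 change in KO against Het was 0.017 ± 0.22 (adjusted p = 0.96) where the family's median was -0.47. With library sizes set to the summed member counts, Rps27l was higher in KO than in Het by 0.54 ± 0.16 (adjusted p = 0.0136) and higher in KO_drug than in Het by 0.66 ± 0.16 (adjusted p = 0.01). Under that scaling, chosen after seeing the data, the median of all genes was itself 0.51 in KO against Het and 0.19 in KO_drug against Het. Of all genes, 41.9% and 14.3% were called higher there, so the KO value of Rps27l is near that of the median gene. The log2 ratio of Rps27l to the sum of Rps27 and Rps27rt was -0.44, -0.49, -0.49 and -0.64 in Het, 0.28, -0.26, 0.16 and 0.64 in KO and 0.50, 0.21, 0.43 and 0.34 in KO_drug. All Het values were below all others, by a mean of 0.72 for KO and 0.88 for KO_drug (each exact permutation p = 0.0286). This summed partner was chosen after the counts were seen and is not among the 15 adjusted tests. Against Rps27 alone the difference was 3.55 (exact permutation p = 0.0857), which holds the assignment above.

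In agonist-fed against unfed Atp7b-/- liver the members stood higher relative to the median gene, but few passed. Under TMM scaling 1 of 82 rose (Rpl22) and 0 fell, where 8.8% of all genes rose and 11% fell. At an unadjusted p under 0.05, 16 were higher and 0 lower, and DESeq2 called 4 higher (10.9% of all genes) and 0 lower. The median of the members was 0.27, against -0.016 for all genes, and 79 of 82 were positive. Under total counts 0 rose by edgeR (0 higher at an unadjusted p under 0.05) and 1, Rpl7l1, fell (-0.41, adjusted p = 0.0397), with medians of -0.077 for the members and -0.36 for all genes, of which 2.65% rose and 29.2% fell. This comparison and KO against Het share the 4 KO libraries, so opposite signs in both are not independent.

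No overlap between KO_drug and KO was seen for 7 members on the higher side (among them Rpl22, Rpl8, Rpl7a and Rplp1) and 0 on the lower side, against 11.4% and 12.5% of all genes. The number of calls turned on Het 1 and KO 4: 6 members rose without Het 1 (10.3% of all genes did), 7 without KO 4 (5.44% of all genes), and 36 with both left out (7.48% of all genes). Rpl22, an RNA-binding large-subunit protein (chromosome 4, 152324436 to 152334082), stood at 112, 91.4, 81.4 and 87.2 CPM in Het, 75, 90.1, 72.7 and 71.7 CPM in KO and 100.1, 108, 127 and 119.7 CPM in KO_drug. All KO_drug libraries were above all KO libraries, and it rose by 1.47-fold (log2 0.55 ± 0.13, adjusted p = 0.0112). Under total counts the value was 0.20 (adjusted p = 0.372), and with KO 2 and KO 4 alone it was 0.50 (adjusted p = 0.0567). Rps2, with the means given above, did not pass (0.53, adjusted p = 0.0678), but did without Het 1 (0.0491), without KO 4 (0.04) and by DESeq2 (0.0333). Rpl7l1 was nearly level between them under TMM (-0.069, adjusted p = 0.688), and Rps4l had -0.26 (adjusted p = 0.553), a value of the opposite sign (0.40) with KO 2 and KO 4 alone.

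Under TMM the median of the members in agonist-fed Atp7b-/- liver lay between those of KO and Het. Under total counts it did not: 64 of 82 members were below KO and 48 of 82 below Het, with median log2 differences of -0.077 and -0.029. Against Het under TMM, 2 fell (Rpsa and Rpl7l1) and 1 rose (Rps4l, 0.94 ± 0.29, adjusted p = 0.0327), where 8.45% of all genes fell and 13% rose, and the median was -0.19 against a median of 0 to 2 decimals for all genes. No overlap was seen for 12 members on the lower side and 1 on the higher side, against 11% and 13.6% of all genes. The Rps4l call was lost in 6 of 12 fits that left out 1 library, with adjusted p up to 0.111. With library sizes set to the summed member counts, Rpl22 (0.49, adjusted p = 0.0155), Rps4l and Rps27l were higher in KO_drug than in Het and 0 were lower by edgeR (3 lower at an unadjusted p under 0.05), against 14.3% of all genes higher and 2.44% lower.

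The genes that serve ribosome supply gave a mixed picture in KO against Het under TMM, where 17.7% of all tested genes fell and 23% rose. Of genes that encode further ribosomal proteins under other names, Fau, a fusion that yields a small-subunit protein (-0.47, adjusted p = 0.0108), and Rack1, a scaffold on the small subunit (-0.58, adjusted p = 0.0368), fell. The Rack1 call was lost in 5 of 12 fits that left out 1 library (adjusted p up to 0.109) and from KO 2 and KO 4 alone (0.201). Other mRNAs with a TOP start fell for 9 of 15 and rose for 0 by edgeR (0 higher at an unadjusted p under 0.05), with a median of -0.38, among them Naca (-0.68, adjusted p = 0.00358), a chaperone of nascent chains, and Eif4b (-0.62, adjusted p = 0.00289), an initiation factor. Translation initiation factors fell for 10 of 30 and rose for 1, with Eif3i (-0.81, adjusted p = 0.000109) and Eif1ax (-0.72, adjusted p = 0.000951) of the smallest p. Under total counts 2 of the 15 TOP mRNAs rose and 0 fell by edgeR (0 lower at an unadjusted p under 0.05), with a median of 0.11, and 14 of the 30 initiation factors rose and 1 fell, with a median of 0.34. Of all genes, 51.6% rose and 3.44% fell under total counts, with a median of 0.54.

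Ribosome assembly factors, the nucleolar proteins that build the subunits, had a median of 0.012 under TMM, near that of all genes. Among the 79, 18 fell and 5 rose, where 17.7% of all genes fell and 23% rose. Emg1, a ribosomal RNA methyltransferase, fell by 0.78 (adjusted p = 0.000253), Nop16 fell by 0.59 (adjusted p = 0.000523), and Eif6, which keeps the large subunit from joining too early, rose by 0.64 (adjusted p = 0.000655). Under total counts 55 of 79 rose and 0 fell by edgeR (0 lower at an unadjusted p under 0.05), where 51.6% of all genes rose and 3.44% fell. RNA polymerase I genes fell for 2 of 16, Polr1c (-0.96, adjusted p = 6.39e-05) and Cd3eap (-0.61, adjusted p = 0.012), and rose for 0 by edgeR (3 higher at an unadjusted p under 0.05), with a median of -0.11. Under total counts 7 of the 16 rose and 1 fell, with a median of 0.42, and Cd3eap did not pass (-0.070, adjusted p = 0.77), nor did it from KO 2 and KO 4 alone (0.0766). Of 14 tested snoRNA host genes without a protein, 1 fell (Snhg8, -0.85, adjusted p = 0.00482) and 2 rose, among them Snhg15 (1.52, adjusted p = 0.0148). Under total counts 4 of the 14 rose and 0 fell by edgeR (0 lower at an unadjusted p under 0.05).

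Among 22 genes of MYC and mTOR control, 5 fell and 2 rose under TMM, with a median of -0.062, whereas 2 fell and 12 rose under total counts, with a median of 0.46. Over all genes, 17.7% fell and 23% rose under TMM, and 3.44% fell and 51.6% rose under total counts. Eif4ebp2, a repressor of cap-dependent initiation that mTOR switches off, stood at 41.8, 31.8, 32.7 and 44.7 CPM in Het, 17.9, 14.5, 14.6 and 15 CPM in KO and 17.7, 28.3, 23.9 and 23.3 CPM in KO_drug. It was lower in all KO than in all Het libraries (-1.28 ± 0.16, adjusted p = 6.17e-05; -0.78 under total counts). Sesn2, a leucine sensor that restrains mTOR and is a p53 target, stood at 5.83, 2.86, 4.6 and 7.04 CPM in Het, 16.6, 15, 15 and 15 CPM in KO and 8.33, 10.3, 9.27 and 10.2 CPM in KO_drug. It rose in KO (1.60 ± 0.22, adjusted p = 0.000124). Of 13 genes of p53 and its ribosomal checkpoint, 11 rose and 0 fell by edgeR (0 lower at an unadjusted p under 0.05), with a median of 1.65, led by Eda2r (5.98 ± 0.28, adjusted p = 2.43e-08) and Phlda3 (5.87 ± 0.37, adjusted p = 2.5e-07). Both rises held under total counts, where 12 of 13 of the list rose.

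In KO_drug against KO few of these genes passed under TMM, where 8.8% of all genes rose and 11% fell. Naca rose by 0.47 (adjusted p = 0.0473), and of the initiation factors Eif4a2 rose by 0.65 (adjusted p = 0.0077) and Eif3i by 0.43 (adjusted p = 0.0146). Of the assembly factors, Las1l rose by 0.46 (adjusted p = 0.0185) and Eif6 fell by 0.50 (adjusted p = 0.00785). Eif4ebp2 rose by 0.59 (adjusted p = 0.0211), Rptor, the mTOR complex subunit, by 0.45 (adjusted p = 0.022), and Sesn2 fell by 0.69 (adjusted p = 0.0351). Snhg11, a snoRNA host of neuronal tissue, rose by 2.20 (adjusted p = 0.0422) from levels of 1.41, 0.607, 3.27 and 1.31 CPM in KO and 1.61, 6.51, 2.81 and 20.0 CPM in KO_drug, where KO_drug 4 set most of the mean and the value was 1.13 (adjusted p = 0.218) without it. Of the p53 list 3 fell, among them Phlda3 (-1.47, adjusted p = 0.00376) and Pmaip1 (-1.96, adjusted p = 0.014). Leaving out 1 library at a time ended the call of Naca in 9 of 12 fits (adjusted p up to 0.137), Sesn2 in 8 (up to 0.0863), Snhg11 in 7, Rptor in 4, Eif4ebp2 in 3, Las1l in 2 and Eif3i in 1. From KO 2 and KO 4 alone Naca (0.159), Sesn2 (0.094), Eif4ebp2 (0.0827) and Las1l (0.0731) did not pass. Under total counts none of the rises named here passed, with adjusted p of 0.057 (Snhg11) to 0.661 (Eif3i), and the falls of Eif6, Sesn2, Phlda3 and Pmaip1 held.

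Beside the cytosolic family, 36 of 78 mitochondrial ribosomal protein genes fell and 0 rose in KO against Het under TMM, with a median of -0.34. In KO_drug against KO 11 of them rose and 0 fell, with a median of 0.26, and on the side of each 0 edgeR had 0 at an unadjusted p under 0.05. Under total counts 11 rose and 0 fell in KO against Het by edgeR (1 lower at an unadjusted p under 0.05), with a median of 0.18, and 1 rose and 1 fell in KO_drug against KO, with a median of -0.088. Of 39 tested proteasome subunit genes, 7 rose and 1 fell in KO against Het under TMM, with a median of 0.21, and 36 rose and 0 fell by edgeR under total counts (0 lower at an unadjusted p under 0.05), with a median of 0.74. Under TMM the medians of the 3 families in KO against Het were thus -0.47, -0.34 and 0.21, and the difference between the families was not tested. Over all genes in KO against Het, 17.7% fell and 23% rose under TMM, and 3.44% fell and 51.6% rose under total counts. In KO_drug against KO, 8.8% of all genes rose and 11% fell under TMM, and 2.65% rose and 29.2% fell under total counts. Of 3 tested rows named as ribosomal protein pseudogenes, 0 rose and 0 fell by edgeR (0 higher and 1 lower at an unadjusted p under 0.05).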

How the data were processed

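RNA of flash-frozen liver was made into stranded total-RNA libraries, per the labels' protocols. The authors deposited a whole-number read count per gene and library, not normalized, and an FPKM per gene and library (fragments per kilobase of model, scaled to library size) in the same table, per the file headers. Per the submitters' processing notes, the tools included StringTie 2.1.3b and FastQC 0.11.7, and the build was mm10; no aligner, annotation release or strand setting was given in the sources that were used here. In that table, 3 columns without a name are not used here. Counting reads per gene lets near-identical copies trade reads, as for Rps27 and Rps27rt.

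Genes were kept by filterByExpr (minimum count 10, total 15), which left 13379 and set aside 11153. edgeR 4.0.16 in R 4.3.3 fitted group means to the 12 libraries by quasi-likelihood, with TMM scaling and no block; each comparison was a contrast, two-sided, with Benjamini-Hochberg adjustment over all tested genes and calls at an adjusted p under 0.05. The SE of a log2 change was its size divided by the square root of F. Model length was inferred as the median over libraries of the count divided by FPKM and library total, for counts of at least 20. Levels are CPM, as mean and SD over 4 libraries; levels between genes use FPKM. The script was tested on simulated counts. Alternatives were total-count scaling, DESeq2 1.42.0, no filter, limma 3.58.1 on log2(FPKM + 0.1), a replicate block, each library left out, KO restricted to KO 2 and KO 4 and, chosen after seeing the data, library sizes set to the summed member counts without Rps27, offsets from a loess on gene length, Het 1 and KO 4 left out, and Rps27 summed with Rps27rt. Copy ratios are log2 of counts plus 0.5.

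The members and gene lists were chosen with earlier results of these data known. Named genes are Atp7b, the 4 largest called rises and falls among members per comparison, the 5 highest by FPKM, all copies with partners, the 5S particle, the stalk, Rps6, Rpl13a and Rps27a, and per pathway list the 2 called genes of smallest adjusted p in KO against Het and KO_drug against KO; others were named after their values were seen. Some genes that the rule names are not reported here. Same-numbered libraries of different groups did not deviate together (8 pairs, correlations of -0.0115 to 0.119, 1 over 0.1), so the numbers were not taken as pairs. Nothing states that libraries come from separate litters or days, so p-values measure the spread between these 12 libraries, taken as separate animals. Pairs of libraries differed by more than counting noise (chi-square per degree of freedom of at least 39.2). Positions and promoters are from RefSeq (GRCm38.p6), coding sequences from GENCODE transcripts of GRCm38.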

Additional observations from a re-analysis of the deposited data

Results flagged for a closer look

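Single libraries stood apart from the other 3 of their group in 21 of 150 tested groups of 4, by Dixon's criterion (gap over range above 0.829), where chance alone would give about 1 in 20. Het 1 was the high one for Rpsa (671 CPM), Rpl10 (827 CPM), Rps27l (242 CPM), Rpl22l1 (49.6 CPM), Rpl36al (203 CPM), Rps4x (500.1 CPM), Rpl5 (468 CPM), Rpl11 (325 CPM), Rps27a (187 CPM) and Naca (311 CPM). KO 4 was the high one for the members' share of all counts (2.18%) and for Rps27 (219.9 CPM), Rpl22l1 (54.6 CPM), Rpl5 (271 CPM), Rpl11 (199 CPM), Rplp0 (516 CPM) and Rps27a (163 CPM). These 17 are not independent, since most are values of members, which move together. Naca is not a member, and in KO 2, KO 5 and KO 6 nearly all counts of the Rps27 pair lay on Rps27rt. KO 2 stood apart for Eif4ebp2 (17.9 CPM) and Sesn2 (16.6 CPM), both the highest of KO, and KO_drug 2 for Rps29 (229 CPM) and Phlda3 (3.34 CPM), both the lowest of KO_drug.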

How the results depend on the processing

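Counts of calls, and signs near 0, depended on the scaling. TMM, total-count and member-sum scaling move all genes nearly alike, so the members' distance from the median gene could hardly change under them; length offsets brought it from -0.49 to -0.24. In KO against Het, total counts gave 0 lower members and a median of 0.028, with values above 0 for Rps29 (0.11), Rpl41 (0.029), Rplp1 (0.13), Rpl22l1 (0.25), Rpl22 (0.24), Rpl36a (0.14), Rps4x (0.041), Rpl7 (0.11), Rplp0 (0.010), Rplp2 (0.13), Rps6 (0.0061), Rps27a (0.073) and Fau (0.043). Limma on FPKM gave 0 lower and a median of 0.059, with Rps29 0.14, Rpl10 0.014, Rpl41 0.046, Rplp1 0.16, Rpl22l1 0.18, Rpl22 0.27, Rpl36a 0.17, Rps4x 0.068, Rpl7 0.14, Rplp0 0.038, Rplp2 0.16, Rps6 0.044, Rps27a 0.058 and Fau 0.066. Scaling to the summed member counts gave 2 higher, 1 lower and a median of 0.022, with Rps29 0.093, Rpl41 0.0054, Rplp1 0.11, Rpl22l1 0.19, Rpl22 0.23, Rpl36a 0.12, Rps4x 0.020, Rpl7 0.099, Rplp2 0.12, Rps27a 0.027 and Fau 0.020. Length offsets gave 2 higher, 18 lower, a median of -0.22 and Rpl22l1 0.057. KO 2 and KO 4 alone gave 0 higher and 21 lower, with Rps27l -0.061 and Rpl22l1 0.061. With the replicate block, 0 members were higher and 4 lower (15 lower and 1 higher at an unadjusted p under 0.05) and Rpl22l1 had 0.14. The share of all genes called with that block was not set beside these counts, so they are not read as a result about the members. Leaving out 1 library, 4687 to 5597 genes and 26 to 68 lower members were called, medians were -0.57 to -0.33, and Rps27l ranged from -0.094 to 0.28.

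In KO_drug against KO, total counts called 4255 genes, 0 members higher and 1 lower (median -0.077, Atp7b -0.25), limma on FPKM 4781 genes and 1 member lower (median -0.075, Atp7b -0.29), and member scaling 0 higher (median -0.0085, Atp7b -0.22). DESeq2 called 4 higher. The replicate block called 1741 genes and 0 members higher, with Rps4l at 0.25, as against 0.40 with KO 2 and KO 4 alone. Without Het 1 and KO 4, 36 were higher and Atp7b had -0.0063. Leaving out 1 library gave 1632 to 3066 genes, 1 to 7 higher members, Atp7b from -0.22 to 0.28 and Rps4l from -0.48 to 0.047. In KO_drug against Het, 1 member was lower under total counts and under FPKM, 7 with DESeq2, and 4 with length offsets (2 higher). Member scaling gave 3 higher, 0 lower and a median of 0.013, and 3 were higher without Het 1 and KO 4. Leaving out 1 library gave 0 to 2 higher and 2 to 4 lower members. Under TMM with all libraries, 8.45% of all genes fell and 13% rose in KO_drug against Het. For the other fits of this comparison, apart from member scaling, shares of all genes were not set beside the counts. Those counts are therefore not read as results about the members.

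Against Rps27 plus Rps27rt, the Rps27l ratio was 0.16 in KO_drug against KO and 0.88 in KO_drug against Het, where Rps27 alone gave -4.35 and -0.81. Leaving out 1 library, the latter ranged from -1.36 to 0.83, and the ratio of Rpl22l1 to Rpl22 from -0.34 to 0.039 in KO against Het and from -0.19 to 0.18 in KO_drug against KO. The cause of these shifts was not tested, apart from the fewer libraries in the fits that leave some out.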
